A study of Mus musculus with 3 samples.

Results

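The cells described here are hippocampal microglia with no detected transcript of 10 chosen marker genes of reactive, interferon, cycling or border macrophage states. They were divided by how much of their RNA came from the mitochondrial genome. Cells were taken from 3 single-cell RNA sequencing runs of mouse hippocampus when they had at least 2000 unique molecular identifiers (UMIs, each counting 1 captured RNA molecule), at least 500 genes and at most 10% of UMIs from genes of the mitochondrial genome (symbols starting with mt-). A UMI of P2ry12 or Tmem119 had to be present, and no UMI of Spp1, Lpl, Lgals3, Ifit1, Ifit3, Mki67, Top2a, Mrc1, Pf4 or H2-Aa. Cells without these 10 transcripts are called marker-free below. UMIs of other state genes, such as Cd74, Ifi27l2a and Cst7, did not remove a cell and were found in some. The rule kept 16333 of 20376 barcodes (80.2%), of which 5771, 5496 and 5066 lay in runs 1, 2 and 3. Within each run, cells were ranked by the percent of their UMIs from mt- genes. The cells were thus chosen by measured UMIs, and the share of mt- UMIs divided them into 4 groups of equal size per run. Cells above the 75th percentile (the high group, 4084 cells in all) were compared with those below the 25th percentile (the low group, 4084 cells), and the 8165 cells of the lower and upper middle groups and 2714 microglia that did carry a marker of the rule were used for further comparisons.

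All 3 runs share a single design. Mice of genotype Cx3cr1CreERT2/+; Rosa26tdTomato/+; NestinTK-eGFP/+ received tamoxifen at 100 mg/kg on 4 consecutive days, and tdTomato+ cells of both hippocampi were sorted. Cre was driven by Cx3cr1, so the reporter marks cells that used this myeloid gene when tamoxifen was given. The study pooled 12 animals, 6 male and 6 female, which the labels do not assign to runs, and the animals' age is not given in the labels. Both groups of a run come from 1 library and the same animals, so the runs are the only replicates (n = 3). In comparisons of 2 groups the p-values rest on how their difference varies from run to run, not on the spread of the runs' levels. Between the high and low groups each gene has 2 residual degrees of freedom. Its error is thus largely borrowed from the other genes (median prior degrees of freedom 35.0).

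The mitochondrial genome encodes 13 proteins, which are subunits of respiratory complexes I, III and IV and of ATP synthase, while the nucleus encodes all other subunits of these complexes and the whole of complex II. A balanced complex therefore needs transcripts from both genomes. In droplet data the mitochondrial share of a cell's UMIs is also widely used as a quality measure, since it rises when cytoplasmic RNA leaks from a damaged cell. Microglia, the resident phagocytes of the brain, are known to raise lysosomal, lipid-handling and metabolic genes when they leave their resting state.

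P2ry12, a purine receptor of resting microglia, was detected in 99.9% of the cells of run 1, which the choice of cells by P2ry12 or Tmem119 largely fixed. The summed level of 10 microglial markers, these 2 among them, was 33910, 43412 and 34832 CPM in the low groups of runs 1, 2 and 3 against 32502, 41364 and 33786.5 CPM in the high groups. CPM are UMI counts scaled to the same total per library. They leave the mt- genes out of that total throughout, so that the measure that chose the cells does not enter the scale. The marker sums of this paragraph use these totals as they are. CPM of single genes and gene lists below are also divided by a trimmed-mean (TMM) factor per sum. Between the outer groups these factors were 1.05, 0.972 and 1.06 in the low and 0.991, 0.928 and 1.002 in the high groups of runs 1, 2 and 3. The small differences between the microglial marker sums can thus change direction with the scaling. Markers of border-associated macrophages summed to at most 2.03 CPM in any of these 6 sums, of which Mrc1 and Pf4 were at 0 by the rule. Those of monocytes summed to at most 7.41 CPM and those of neutrophils and of T and NK cells to at most 0.22 CPM. Libraries of runs 1 and 2 held choroid plexus transcripts in the high group, where 5 markers led by Ttr summed to 1200 and 671 CPM against 31.7 and 128 CPM in the low group. Run 3 had 11.2 and 13.3 CPM. Astrocyte markers (9 genes) summed to 435, 275 and 269 CPM in the high groups and to 390, 246 and 258 CPM in the low groups, and were higher in the high group of every run. The same held for endothelial markers (6 genes), at 678, 830 and 642 CPM against 625, 792 and 599 CPM, of which Cldn5 and Ly6c1 were at 0, and for neuronal markers (8 genes), at 19.8, 9.30 and 6.78 CPM against 12.2, 9.09 and 6.52 CPM. Oligodendrocyte markers (8 genes) were lower in the high group of runs 2 and 3 on these totals. They stood at 108.2, 125.1 and 94.9 CPM in the high and 107.9, 130.5 and 97.2 CPM in the low groups. The part of all these markers in the results below was not tested beyond the alternatives named. Run 3 also stood apart by immediate early genes, since 36.9% of its low-group and 32.0% of its high-group cells had a UMI of Fos or Egr1, against less than 1% in every group of runs 1 and 2 shown here (0.901% at most). The runs shared 7 to 10 barcodes in pairs.

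**Figure D1:**
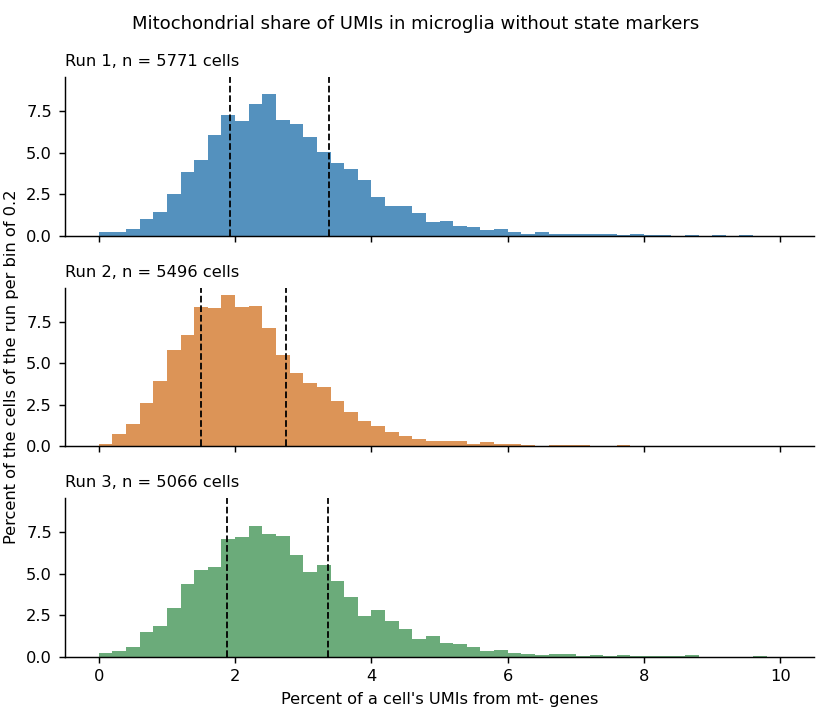
Percent of a cell's UMIs that came from mt- genes (x axis, bins of 0.2) against the percent of the run's cells (y axis) in each of the 3 runs. Dashed lines mark the limits of the low and high groups, which lay at 1.93 and 3.37 in run 1, 1.504 and 2.74 in run 2 and 1.87 and 3.36 in run 3, within a single peak with a tail to the right.

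The mitochondrial share was low throughout and formed 1 continuous range in each run, as the histograms of this share show. The median was 4.01, 3.36 and 4.06% in the high groups of runs 1, 2 and 3 and 1.52, 1.14 and 1.43% in the low groups. The group limits were no natural boundary: in run 1 the cells on either side of the upper limit had 3.37% of mt- UMIs, and those on either side of the lower limit had 1.93%. The median cell of the high group held 184, 122 and 156 mt- UMIs and that of the low group 61, 37 and 48. The UMIs outside the mt- genes had medians of 4298, 3370.5 and 3580 in the high groups and 4081, 3272 and 3458 in the low groups. Against the low group, the high group thus had more UMIs of both kinds, while its other UMIs were below those of the upper middle group, whose medians were 4349.5, 3470 and 3641.

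Because the share chose the cells, the mt- genes themselves are described without a test. All 13 were higher in the high group of every run. The mean fold between the groups was 3.25 ± 0.164 (SD, n = 3 runs) for mt-Co3, a catalytic-core subunit of complex IV, 3.18 ± 0.173 for mt-Atp6 of ATP synthase and 3.06 ± 0.154 for mt-Cytb of complex III. The complex I subunits mt-Nd1 and mt-Nd4 were 3.06 ± 0.115 and 3.08 ± 0.175 times as high. The smallest fold, 2.38 ± 0.0736, was that of mt-Nd6, the protein gene on the other strand of the mitochondrial genome. Within the mt- UMIs the make-up hardly moved, mt-Co3 taking 16.8% of them in the low group and 17.5% in the high group and mt-Co1 taking 12.8% and 12.1%.

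Outside the mitochondrial genome, cells of the high group had more RNA of ribosomal proteins, of nuclear-encoded respiratory chain subunits, of lysosomal proteins and of genes known from disease-associated microglia. They had less RNA of several long nuclear genes and of RNA processing factors. Early response genes were also lower, a change of their list that was not seen when run 3 was left out. Of 10523 genes tested on UMIs summed per run and group (edgeR's quasi-likelihood test with the run as a block), 840 (7.98%) had an adjusted p under 0.05. The high group was higher for 557 of them (5.29% of the genes tested) and lower for 283 (2.69%). Most changes were small: 92 genes (0.874%) were called with a log2 change of at least 0.5. The median log2 change over all genes tested was -0.01.

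The split between higher and lower calls moved with the scaling. The trimmed-mean (TMM) scaling used here assumes that most genes do not change between the groups compared. Without TMM factors 360 genes were called higher and 1284 lower, and with totals that left out the ribosomal protein genes 431 were called higher and 687 lower. The median of all genes moved to -0.09 and -0.06, respectively. Without the run as a block, so that the difference between libraries entered the error, no gene was called (261 genes had an unadjusted p under 0.05, against 2037 with the block). The count was 476 without run 1 and 556 without run 3, against 846 without run 2.

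**Figure D2:**
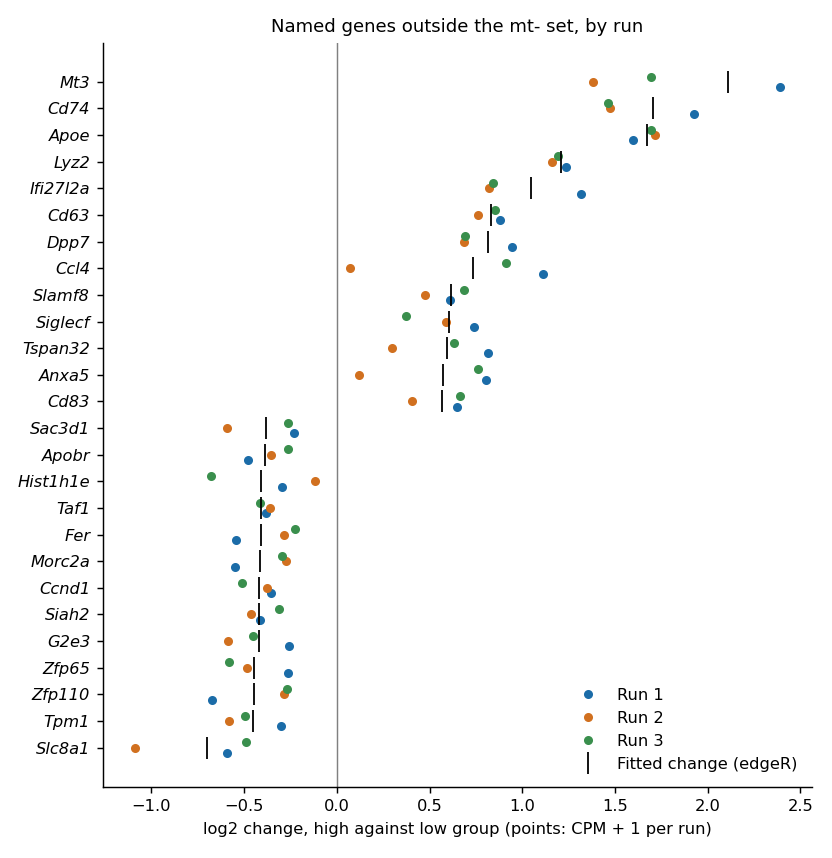
Log2 change from the low to the high group (x axis) for 26 genes outside the mt- set (y axis), with a point for each run computed on CPM + 1 and a bar for the fitted change. All points of the 13 genes above lie to the right of 0 and all points of the 13 genes below to the left, and the farthest points lie on the right.

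Apoe, the main lipid carrier of the brain, had the change with the smallest relative error. It stood at 343, 444 and 348 CPM in the low groups of runs 1, 2 and 3 and at 1041, 1462 and 1129 CPM in the high groups. The groups did not overlap, and the lowest high-group value was far above the highest low-group value (log2 change 1.67, SE 0.03, adjusted p = 3.38e-31). For the detection rates every cell was thinned to 1800 UMIs outside the mt- genes. Apoe (chr7:19696109-19699188, GRCm38) was then detected in 27.0, 30.6 and 31.2% of low-group cells and in 47.5, 49.8 and 48.6% of high-group cells. Its UMIs were uneven within both groups, with 58.4 to 70.4% of them in the 10% of cells with most of them.

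Lyz2, which encodes lysozyme (chr10:117277331-117282321), was at 109, 136 and 91.4 CPM in the low groups and 258, 306 and 210.4 CPM in the high groups (log2 change 1.21, SE 0.05, adjusted p = 3.34e-22). Cd63, a tetraspanin of late endosomes and lysosomes (chr10:128900989-128912822), was at 264, 362 and 250.4 CPM and at 487, 615 and 453 CPM (log2 change 0.83, SE 0.04, adjusted p = 7.74e-20). For both genes the values of the high groups lay above all 3 values of the low groups.

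Cd74, the invariant chain that escorts MHC class II molecules, rose from 9.34, 14.2 and 14.3 CPM to 38.3, 41.0 and 41.2 CPM (log2 change 1.70, SE 0.11), although cells with H2-Aa UMIs had been left out. Few cells carried it: after thinning, 1.87 to 2.76% of low-group and 4.71 to 5.45% of high-group cells had a Cd74 UMI, while no cell had one of Cd3e, a T cell gene that microglia lack. Ifi27l2a, an interferon-induced gene, rose with a log2 change of 1.05 (SE 0.11). Cd83 (log2 change 0.57), an activation marker of antigen-presenting cells, rose from 79.8 ± 22.9 to 117 ± 20.5 CPM (mean ± SD, n = 3 runs), higher within each run although the runs' own levels overlap. Dpp7 (0.81), a lysosomal dipeptidase, Siglecf (0.61), a sialic acid-binding receptor, Slamf8 (0.62), a receptor of activated myeloid cells, Tspan32 (0.60), a tetraspanin, and Anxa5 (0.57), which binds phosphatidylserine, also rose. Anxa5 lost its call without run 1 (log2 change 0.40, adjusted p = 0.132). It also lost its call without cells with 2 or more UMIs of other brain cell markers (adjusted p = 0.270). Leaving out cells with Itgax, Axl, Cst7, Cd74 or Ifi27l2a did the same (adjusted p = 0.113).

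Mt3 and Ccl4 need the values of single cells and libraries beside them. Mt3, a metallothionein that binds zinc and copper and that astrocytes and neurons are known to express, had the largest change of the 13 genes in the plot of log2 changes that were higher (log2 2.11, SE 0.16). It stood at 7.66, 9.58 and 2.25 CPM in the low groups and 44.3, 26.5 and 9.52 CPM in the high groups, the low group of run 2 lying above the high group of run 3. The astrocyte markers given above were higher in the same groups, and their part in this value was not tested. Ccl4, a chemokine that attracts monocytes and T cells, was at 21.6, 41.8 and 37.2 CPM and at 47.8, 43.9 and 70.8 CPM (log2 change 0.74, SE 0.11, adjusted p = 2.23e-06). In run 3, 1 cell held 179 of the 335 Ccl4 UMIs of the high group, and in run 2 the groups hardly differed.

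Of the genes called with a log2 change of at least 0.5, 17 were lower and 75 higher, a split that turned to 73 lower and 59 higher without TMM factors. Slc8a1, a sodium-calcium exchanger of the plasma membrane whose gene spans a long stretch of chromosome 17 (chr17:81373105-81738377), fell from 24.0, 16.8 and 20.9 CPM to 15.6, 7.35 and 14.6 CPM (log2 change -0.70, SE 0.13, adjusted p = 0.000228). All 3 values of the high groups lay below those of the low groups. Ccnd1, a D-type cyclin that microglia express without dividing, fell from 115, 169.6 and 177 CPM to 89.9, 130.1 and 124 CPM (log2 change -0.42, SE 0.05, adjusted p = 2.13e-08), lower within each run although the runs' own levels overlap. The other 11 named genes had log2 changes between -0.45 and -0.38. They include Tpm1, an actin-binding tropomyosin, Zfp110 and Zfp65, zinc finger genes, Siah2 and G2e3, ubiquitin ligases, Morc2a, a chromatin ATPase, Taf1, a subunit of the general transcription factor TFIID, Fer, a tyrosine kinase, the linker histone gene Hist1h1e, Apobr, a lipoprotein receptor, and Sac3d1. These 11 genes are expressed at a low level, with means between 14.6 and 45.3 CPM in the groups. Of them only Tpm1 kept its call whichever run was left out. The call of Tpm1 was lost with at least 4000 UMIs (adjusted p = 0.394) and for the outer 10% on each side (adjusted p = 0.269). It was also lost without cells with other brain cell markers (adjusted p = 0.0738) and within sex classes (adjusted p = 0.0627). The calls of Zfp110, Morc2a, Fer, Taf1, Apobr and Siah2 were lost without run 1, those of G2e3, Siah2 and Sac3d1 without run 2, and those of Zfp65, G2e3, Siah2, Taf1, Hist1h1e and Sac3d1 without run 3.

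**Figure D3:**
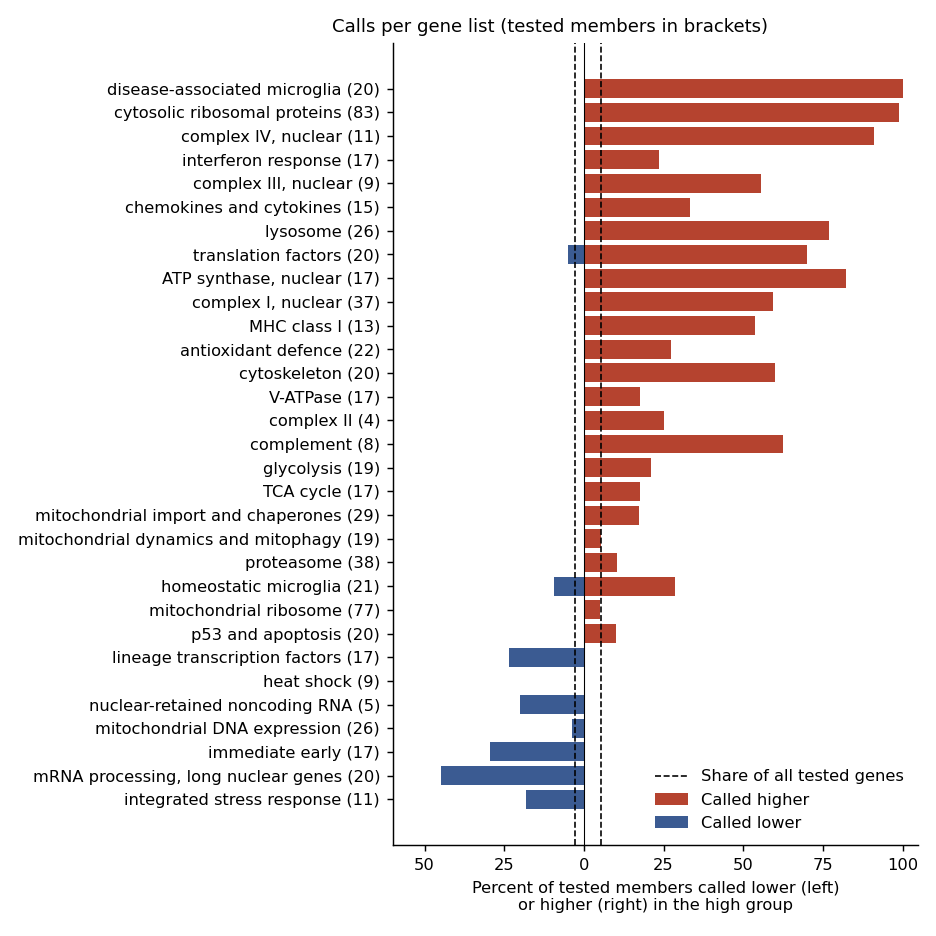
Percent of the tested members of 31 gene lists (y axis, number tested in brackets) that were called higher (right) or lower (left) in the high group. Dashed lines give the shares among all genes tested, 5.29% higher and 2.69% lower. Lists of the ribosome, respiratory chain, lysosome and disease-associated microglia extend far to the right and those of RNA processing and immediate early genes to the left.

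Nuclear genes of the respiratory chain were also higher in the high group. The choice of cells set the change of the mt- genes, so the sizes of the changes are not compared. For complex IV, cytochrome c oxidase, 10 of 11 tested subunits were called higher, with a median log2 change of 0.30 against -0.01 for all genes. Cox4i1, which regulates the complex, went from 342, 400.5 and 354 CPM to 461, 559 and 505 CPM (log2 change 0.47, SE 0.04, adjusted p = 2.49e-13). Cox6c, Cox6a1 and Cox8a rose by log2 0.40, 0.36 and 0.35. For complex III the count was 5 of 9 (median 0.24), led by the hinge protein gene Uqcrh at 218.5, 229.6 and 195 CPM against 288, 295 and 282 CPM (log2 change 0.43). For ATP synthase it was 14 of 17 (median 0.19), among them Atp5e (0.36) and the catalytic subunit Atp5b (0.35), and for complex I 22 of 37 (median 0.19), led by Ndufa1 (0.48) on the X chromosome. Complex II, which has no mitochondrially encoded subunit, had 1 of 4 subunits called (Sdha, log2 change 0.17) and a median of 0.11. Beside the fit without the block, in which nearly all named genes lost their calls, the call of Sdha was lost in 12 alternatives, among them without run 1 (adjusted p = 0.261), without run 3 (adjusted p = 0.155), by DESeq2 (adjusted p = 0.279) and without TMM factors (adjusted p = 0.248). No subunit of these 5 lists was called lower, and their medians kept their sign under all 20 alternatives tried. The summed level of complex IV genes was 2388, 2552 and 2107 CPM in the low groups and 3017, 3052 and 2697 CPM in the high groups.

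NRF1 is a transcription factor known to act on nuclear respiratory genes, and its consensus letters GCGCA, any base, GCGC were searched on both strands in the 250 bases before each start in the RefSeq promoter table (GRCm38.p6). Of the 78 respiratory chain and ATP synthase genes, 64 were found in that table, with 69 promoters. The letters stood in 15 of these (21.7%), against 8.84% of the promoters of tested genes and 3.74% of all 32851 promoters of the table. Of the 14 tested genes with the letters 12 were called higher, with a median log2 change of 0.19, and of the 50 without them 31 were called, with the same median of 0.19. The letters ACTTCCGG of ETS transcription factors were searched as well. They stood in 3 of the 69 respiratory promoters (4.35%), against 6.48% of promoters of tested genes. Cytosolic ribosomal protein genes had them in 8 of 77 promoters (10.4%) and the lysosomal list in 0 of 26. The promoters below were chosen after the values were seen, for 2 called genes and 1 gene that was not called, with the NRF1 letters in capitals. Cox6a1, a subunit of complex IV, is on the minus strand with the window chr5:115348959-115349208, and it has the letters in both of the places shown. Ndufs5, an accessory subunit of complex I (chr4:123718187-123718436, minus strand), went from 114 ± 12.0 to 127 ± 15.2 CPM (log2 change 0.16, adjusted p = 0.0308). Its call was lost in 16 alternatives, including each run left out (adjusted p = 0.0975, 0.178 and 0.108 without runs 1, 2 and 3). Ndufa11, another complex I subunit (chr17:56717512-56717761, plus strand), was at 88.6 ± 17.2 and 97.5 ± 16.3 CPM (log2 change 0.15, adjusted p = 0.103), so the values of Ndufs5 and Ndufa11 were close.
Cox6a1: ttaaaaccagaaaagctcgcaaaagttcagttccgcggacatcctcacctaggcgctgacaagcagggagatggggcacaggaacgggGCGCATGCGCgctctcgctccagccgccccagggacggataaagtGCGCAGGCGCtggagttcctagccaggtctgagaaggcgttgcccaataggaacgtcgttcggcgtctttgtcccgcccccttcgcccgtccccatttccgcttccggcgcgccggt
Ndufs5: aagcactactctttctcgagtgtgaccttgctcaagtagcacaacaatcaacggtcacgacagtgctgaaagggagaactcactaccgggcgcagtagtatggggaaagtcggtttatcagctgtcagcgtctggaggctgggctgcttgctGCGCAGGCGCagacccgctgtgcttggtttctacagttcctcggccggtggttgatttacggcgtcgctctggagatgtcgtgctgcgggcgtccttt
Ndufa11: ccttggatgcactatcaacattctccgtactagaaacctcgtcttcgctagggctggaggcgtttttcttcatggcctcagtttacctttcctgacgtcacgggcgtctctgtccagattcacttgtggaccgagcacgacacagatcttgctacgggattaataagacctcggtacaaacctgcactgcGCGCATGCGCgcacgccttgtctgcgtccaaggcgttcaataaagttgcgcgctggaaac
The matches are a description of these letters and say nothing about binding in these cells.

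Of other lists of mitochondrial proteins, that of import and chaperones rose in part, while the others of this paragraph had few calls. Of 77 tested subunits of the mitochondrial ribosome, which translates the 13 mt- messages, 4 were called higher (5.19%, near the 5.29% of all genes) and none lower, with a median of -0.01 that changed sign under several alternatives. The largest of the 4 calls was Mrpl52, at log2 0.24. Of 26 tested genes for transcription, replication and RNA handling of mitochondrial DNA, none was called higher and 1 lower, where 2.69% of all genes were called lower. It was the mitochondrial poly(A) polymerase gene Mtpap (log2 change -0.34, adjusted p = 0.00894). The call of Mtpap was lost without run 3 (adjusted p = 0.111) and in 6 other alternatives. Of 29 import and chaperone genes 5 were called higher and none lower (median log2 0.06). Tomm7 of the outer membrane translocase was at log2 0.33 and the chaperonin gene Hspe1 at 0.28. Chchd10, a protein of the intermembrane space, went from 1.69, 4.57 and 0.818 CPM to 10.6, 9.14 and 1.27 CPM (log2 1.68). Its call was lost without run 1 (log2 0.94, adjusted p = 0.139) and without cells holding 2 or more Ttr UMIs (0.90, adjusted p = 0.098), an alternative added after the data were seen. Fis1, a receptor of the fission machinery, was the 1 called of 19 genes of dynamics and mitophagy (log2 0.26). That count is near the 5.29% of all genes called higher.

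Central metabolism rose in part. Of 17 tricarboxylic acid cycle genes 3 were called higher (median log2 0.09), and of 19 glycolysis genes 4 were called higher (median 0.11), among them Gpi1 (0.28) and Aldoa (0.18). Of 22 antioxidant genes 6 were called higher (median 0.13), including the peroxiredoxin gene Prdx4 (0.30) and the lipid peroxidase gene Gpx4 (0.22). None of these 3 lists had a call downwards. Gpi1 lost its call with a minimum of 4000 UMIs per cell (log2 0.13), Prdx4 without run 1 (log2 0.20), and Aldoa without run 1 (adjusted p = 0.0681), without run 3 (adjusted p = 0.121) and in 5 other alternatives. Without TMM factors the medians of the 3 lists were 0.014, 0.029 and 0.056, in the order given.

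Cytosolic ribosomal proteins rose almost without exception. Of 83 tested genes 82 were called higher and none lower, with a median log2 change of 0.41. Their summed level was 83054, 86441 and 75690 CPM in the low groups and 111204, 108614 and 105409 CPM in the high groups, so the groups stood apart by several times the spread between runs. Rps28 went from 1142, 814 and 877 CPM to 1642, 1126 and 1297 CPM (log2 change 0.52, SE 0.03), and Rps21, Rpl32 and Rps29 rose by log2 0.50, 0.49 and 0.42. Many ribosomal protein genes have near-identical pseudogenes, so the count of a single gene among them is less certain than the sum. Translation factors moved the same way, with 14 of 20 called higher and 1 lower, the initiation factor gene Eif2s2 at log2 -0.14 (median 0.21). Eef1a1, the elongation factor that brings aminoacyl-tRNA to the ribosome, rose from 2174, 2836 and 2254 CPM to 2841, 3558 and 3126 CPM (log2 0.39), and Eef1b2 and Tpt1 by 0.39 and 0.36. The proteasome had 4 of 38 subunits called higher, among them Psmb4 (0.21) and the immunoproteasome subunit Psmb8 (0.19), with a list median of 0.03 that fell to -0.05 without TMM factors.

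Lysosomal genes rose broadly. Of 26 tested hydrolases, membrane proteins and regulators 20 were called higher and none lower, with a median log2 change of 0.22. Ctsb, a cysteine protease, went from 964, 1736 and 1038 CPM to 1348, 2285 and 1418 CPM (log2 change 0.44, SE 0.03, adjusted p = 4.63e-14), higher within each run although run 2 stood above the other runs in both groups. Npc2, which hands cholesterol out of the lysosome, rose by log2 0.40, Psap, the precursor of sphingolipid activators, by 0.37, and the aspartic protease Ctsd by 0.22. Of 17 subunits of the V-ATPase, the pump that acidifies lysosomes, 3 were called higher (median 0.11), with Atp6v0e at 0.20. The CLEAR element TCACGTGA, known from promoters of lysosomal genes, stood in 4 of the 26 promoters found for 21 of these lysosomal genes (15.4%), against 1.59% of promoters of tested genes. Of the 4 tested genes with it 2 were called higher, and of the 17 without it 15.

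All 20 tested genes of the disease-associated microglia list, which names the lipid and phagocytic state known from neurodegeneration, were called higher, with a median log2 change of 0.43. The list leaves out Spp1, Lpl and Lgals3, whose UMIs had removed cells from the set, and it shares cathepsins with the lysosomal list. Fth1 and Ftl1, the ferritin chains that store iron, rose from 1955, 2279 and 1835 to 2707, 3010 and 2569 CPM (log2 0.45) and by log2 0.41. Cst7, a cystatin that marks the state, rose from 3.97 ± 1.89 to 11.2 ± 0.980 CPM (log2 1.52, SE 0.21). Itgax, an integrin chain that marks the state, had 9 UMIs in the low and 74 in the high groups, and the receptor gene Axl had 13 and 66. Csf1, a growth factor of microglia, rose from 7.53 ± 1.21 to 14.4 ± 0.917 CPM (log2 0.95). When cells with a UMI of Itgax, Axl, Cst7, Cd74 or Ifi27l2a were left out as well, an alternative added after the data were seen, 688 genes were called, and Csf1 lost its call (log2 0.50, adjusted p = 0.136). Csf1 also lost its call after thinning to 2000 UMIs (log2 0.63, adjusted p = 0.126).

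Immune gene groups rose for a part of their members, and no member of the next 4 lists was called lower. Of 13 MHC class I genes 7 were called higher (median log2 0.14). The heavy chain gene H2-D1 went from 348, 388.5 and 344.5 CPM to 526, 529 and 516 CPM (log2 0.54) and its partner B2m rose by 0.34. Of 17 interferon response genes 4 were called higher (median 0.24), among them Lgals3bp (0.53), a secreted glycoprotein, and Ifitm3 (0.57), an antiviral membrane protein. The call of Ifitm3 was lost without run 1 (adjusted p = 0.434) and in several other alternatives, among them within sex classes (adjusted p = 0.185). Of 15 chemokines and cytokines 5 were called higher (median 0.23), among them Cxcl16 (0.36). Of 8 complement genes 5 were called higher (median 0.11). C1qb and C1qc, which encode chains of the recognition molecule of the classical pathway, rose by 0.22 and 0.13, although C1qc lost its call without TMM factors (log2 0.05), without run 1 and without run 3. Of 20 cytoskeletal genes 12 were called higher (median 0.12), among them the actin-sequestering thymosin genes Tmsb4x (0.19) and Tmsb10 (0.36) and the myosin light chain gene Myl6 (0.23).

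Resting-state genes moved in both directions. Of 21 homeostatic microglial genes 6 were called higher and 2 lower, and the list's median of 0.02 turned to -0.06 without TMM factors. Tyrobp, the adaptor through which TREM2 signals, rose from 2321, 3077 and 2222 CPM to 3082, 3772 and 3041 CPM (log2 0.38), the protease gene Ctss rose by 0.29 and Cst3, its inhibitor and a major microglial transcript, by 0.22. The receptors P2ry13 and Cx3cr1 were called lower, at log2 -0.15 and -0.10. P2ry12 and Tmem119, used to choose the cells, were at 4367 ± 1049 and 2431 ± 700.0 CPM in the low groups and at 4155 ± 948 and 2328 ± 577 CPM in the high groups, given as a description.

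Regulatory and nuclear genes were lower where they were called. Of 17 lineage transcription factors 4 were called lower and none higher, among them Elf1 (log2 -0.24), Ets1 (-0.23) and Mef2a (-0.19). The call of Ets1 was lost without run 1 (adjusted p = 0.166), without run 3 (adjusted p = 0.0839) and by DESeq2. That of Elf1 was lost without run 3 (adjusted p = 0.108), by DESeq2 and after thinning to 2000 UMIs. Of 20 genes of messenger RNA processing and other long nuclear genes 9 were called lower and none higher (median -0.11), among them the spectraplakin gene Macf1 (-0.28), the splicing kinase gene Prpf4b (-0.24) and the spliceosome scaffold gene Srrm2 at 549, 511 and 616.5 CPM in the low and 485, 447 and 523 CPM in the high groups (-0.20). Malat1, an RNA retained in the nucleus, fell from 42200, 34049 and 41852 CPM to 36248, 31419 and 36381 CPM (-0.18, adjusted p = 6.53e-06) and was the 1 called of 5 nuclear-retained RNAs. Its call was lost without run 1 (adjusted p = 0.221) or run 3 (adjusted p = 0.144). Of 11 genes of the integrated stress response 2 were called lower, Ddit4 (-0.30) and the central factor Atf4 (-0.21), with a median of -0.17. Atf4 lost its call without run 3 (adjusted p = 0.0693), by DESeq2, after thinning to 2000 UMIs and with at least 4000 UMIs. Ddit4 lost its call by DESeq2 (adjusted p = 0.0826). Of 20 p53 and apoptosis genes 2 were called higher, Bcl2a1b (0.21), which has near-identical copies, and Bax (0.18), which lost its call without run 1 (adjusted p = 0.251) and in 6 other alternatives. None of 9 heat shock genes was called.

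Immediate early genes, which respond within minutes to stimulation and to tissue dissociation, had 5 of 17 members called lower and none higher, with a median log2 change of -0.10. Jun went from 106, 221 and 1319.6 CPM to 90.3, 203 and 965 CPM (log2 -0.33), and Egr1 from 3.06, 4.57 and 318 CPM to 2.37, 5.57 and 259 CPM (log2 -0.29). The levels of run 3 were far above those of the other runs. Without run 3 the change of Egr1 was 0.003 and the median of the list 0.003, and Jun stood at -0.17 with an adjusted p of 0.0918. Rhob, a small GTPase gene of the same list, fell in each run (log2 -0.19).

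**Figure D4:**
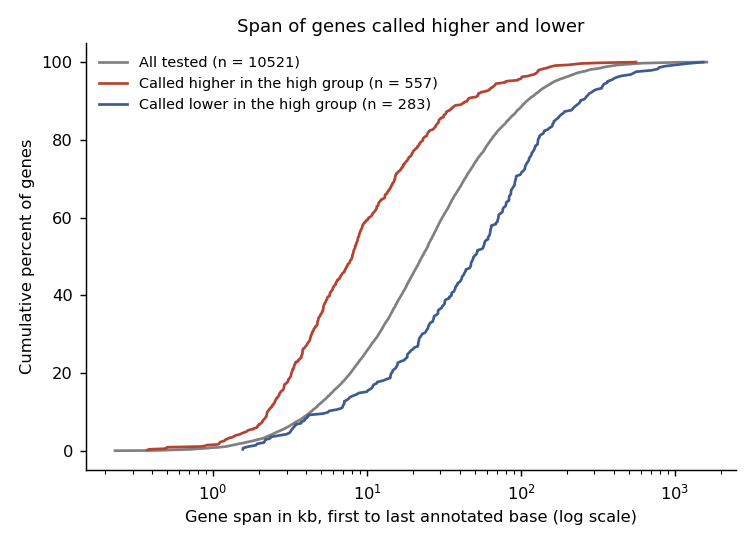
Cumulative percent of genes (y axis) against the span of the gene in kilobases on a log axis, for all tested genes, those called higher and those called lower in the high group. The curve of genes called higher lies to the left of all tested genes and that of genes called lower to the right, with medians of 8.02, 22.8 and 49.96 kb in that order.

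Genes called higher and lower also differed in length. The median span from first to last annotated base (GENCODE M21, GRCm38) was 22.8 kb over tested genes, 8.02 kb over genes called higher and 49.96 kb over genes called lower, as the curves of gene span show. Leaving out the ribosomal protein genes, the genes called higher had a median of 9.06 kb. The genes called in either direction were also those with more UMIs, with a median level of 179 CPM for higher, 89.8 CPM for lower and 27.9 CPM for all tested genes. Cells of the high group spread their RNA over slightly fewer genes. After thinning to 1800 UMIs outside the mt- genes, cells held 1025 ± 24.9 genes in the high and 1059 ± 26.8 genes in the low group (mean ± SD of 3 run means). The high group was lower in 3 of 3 runs, by 34.3 ± 2.33 genes; an exact permutation test on 3 pairs cannot give a two-sided p under 0.25.

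**Figure D5:**
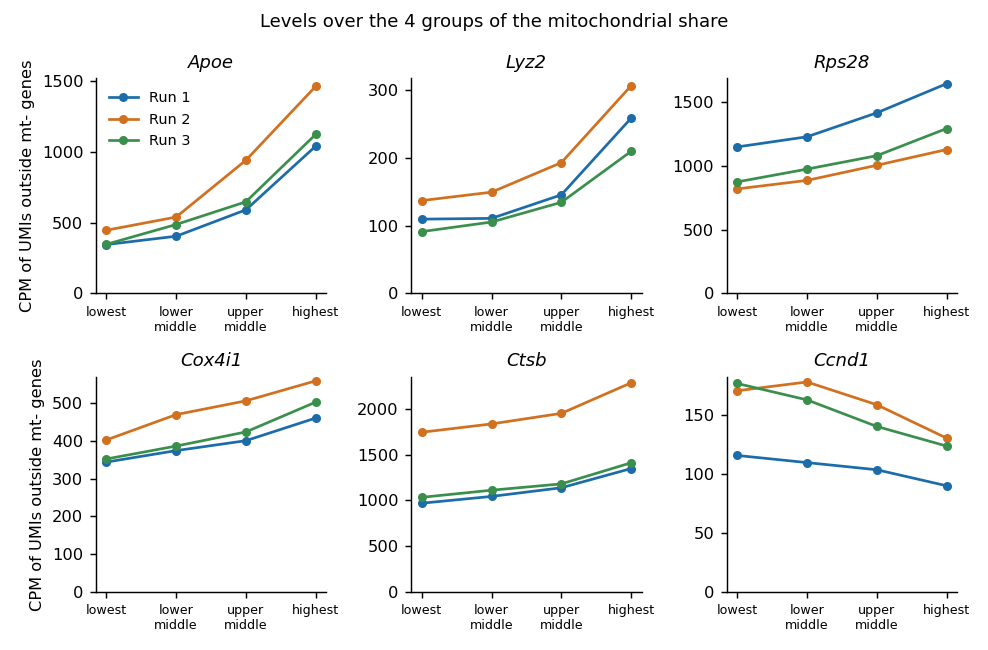
Level of 6 genes (y axis, CPM of UMIs outside the mt- genes, from 0) in the 4 groups of the mitochondrial share (x axis), with a line for each run. Apoe and Lyz2 rise most between the 2 upper groups, while Rps28, Cox4i1 and Ctsb rise at every step and Ccnd1 falls towards the highest group.

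The middle groups hold cells that the contrast above did not use, from the same 3 libraries. Between the upper and the lower middle group 118 of 10549 genes (1.12%) were called, 111 higher (1.05%) and 7 lower (0.0664%), 5 of them (0.0474%) with a log2 change of at least 0.5, and without the run as a block none was (29 at an unadjusted p under 0.05). Of these, 114 (96.6%) were also among the 840 genes called between the outer groups (13.6% of those), all with the same sign, and 67 were ribosomal protein genes. Over the groups from lowest to highest, the mean level of Apoe was 379, 477, 726 and 1209 CPM. Rps28 stood at 946, 1028, 1165 and 1353 CPM, and Cox4i1 at 366, 410.2, 444 and 508 CPM. The summed level of ribosomal proteins was 81728 ± 5497, 89414 ± 3292, 97306 ± 3147 and 108409 ± 2903 CPM, ordered in that way within each run. Of the 13 genes named as higher, Cd74, Apoe, Lyz2, Cd63 and Tspan32 rose over the 4 groups in all 3 runs, and of the 13 named as lower only Zfp65 fell in all 3. By the rule for named genes, 3 chemokine genes led the calls between the middle groups. Ccl2 was at 6.54 ± 4.39 and 29.0 ± 8.31 CPM (log2 change 2.12, SE 0.19), Ccl3 at 25.2 ± 9.96 and 64.7 ± 33.9 CPM (1.27) and Ccl4 at 37.9 ± 6.30 and 85.9 ± 32.0 CPM (1.09). Few cells carried these UMIs. In the upper middle groups 1 cell per run held 95 of 135, 118 of 175 and 93 of 156 Ccl2 UMIs and 128 of 375, 293 of 578 and 158 of 420 Ccl4 UMIs. After thinning, 0.485, 0.728 and 1.18% of the upper middle and 0.346, 0.509 and 1.18% of the lower middle cells had a Ccl2 UMI. Between the outer groups Ccl2 was not called (log2 change 0.39, adjusted p = 0.385). Ccl4 was lower in the highest group, at 54.2 ± 14.6 CPM, than in the upper middle one.

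The 2714 microglia that carried a UMI of Spp1, Lpl, Lgals3 or another marker of the rule were divided by the same measure. Their high group had median mitochondrial shares of 4.66, 3.64 and 4.56% and their low group 1.69, 1.204 and 1.59%. Of 8265 genes tested 890 (10.8%) were called, 585 higher (7.08%) and 305 lower (3.69%), and 467 (5.65%) were called with a log2 change of at least 0.5. Without the block 62 genes were called. These cells come from the same 3 libraries, and 425 genes were called in both sets (50.6% of the calls in marker-free and 47.8% of those in marker-positive cells), all with the same sign. Apoe was at 1632 CPM in their low and 6939 CPM in their high group (means of 3 runs, log2 change 2.23, SE 0.14), and Cox4i1 at 383 and 606 CPM (0.67). Ribosomal proteins were again called in 82 of 83 cases (median log2 0.55), and 20 of 20 disease-associated genes were called higher (median 1.06). By the rule for named genes Wfdc17 led the calls in these cells, at 40.3 ± 18.3 CPM in the high and 0.714 ± 1.24 CPM in the low group. The mitotic genes Ube2c and Ccnb2 were at 39.7 ± 7.23 and 23.8 ± 0.788 CPM in the high group. In the low group they were at 1.92 ± 3.33 and 0.961 ± 1.66 CPM, with 8 and 4 UMIs. UMIs of Mki67 or Top2a were among those that chose these cells. Hlf, Morc2a and Rab43 led the lower calls (log2 -1.28, -1.10 and -1.03). The groups of marker-positive cells may thus differ in the states they hold. The part of such states in this contrast and in the comparison with marker-free cells was not tested.

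The difference between the 2 sets of cells was tested gene by gene as an interaction, on 4 sums per run. The run was the block, with 6 residual degrees of freedom. High and low sums were not paired within a cell set, so run-to-run differences between the sets entered the error. Of 10627 genes 182 (1.71%) were called. The log2 change was more positive in marker-positive cells for 122 of them (1.15%) and more negative for 60 (0.565%). A difference of at least 0.5 was called for 75 genes (0.706%). Without the block none was called (302 at an unadjusted p under 0.05), without run 1 the count was 47, without run 2 it was 86, and with cells thinned to 2000 UMIs it was 57. Marker-positive high-group cells were deeper, with medians of 5347.5, 3814 and 4358 UMIs outside the mt- genes against 4299.5, 3423 and 3782 in their low group. The change was more positive in marker-positive cells for 12 of 20 disease-associated genes and 6 of 19 chemokines and cytokines. It was more negative for 12 of 21 homeostatic genes (median difference -0.23). The homeostatic list had a median log2 change of -0.25 in marker-positive and 0.02 in marker-free cells. Of its genes, 13 were called lower within the marker-positive cells. Lyz2 differed by log2 0.81 (SE 0.22, adjusted p = 0.0409) and Cd63 by 0.80 (SE 0.09, adjusted p = 1.82e-07). The difference for Apoe was 0.51 (SE 0.21) and did not pass the threshold (adjusted p = 0.276). Among the respiratory lists, 4 of 11 complex IV genes and none of 37 complex I genes had a larger change in marker-positive cells.

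Runs pooled both sexes, and the share of cells by sex differed between groups in run 2, where cells with Xist and no Y-linked UMI made up 57.0% of the high and 49.6% of the low group. When groups were taken within cells of each kind, 667 genes were called. The high-low change differed between cells with Xist only and cells with Y-linked UMIs only for 2 of 9904 genes (0.0202%), Ttr and Enpp2, both choroid plexus markers. This interaction was fitted like that with marker status, with 6 residual degrees of freedom. Ttr, the thyroid hormone carrier of choroid plexus, stood at 1143, 678 and 8.88 CPM in the high groups of runs 1, 2 and 3 and at 27.7, 122 and 9.0 CPM in the low groups, so it was not higher in run 3. In run 1, a single cell held 1702 of 7252 Ttr UMIs of the high group. Leaving out cells with 2 or more Ttr UMIs gave 862 called genes, against 840 with them.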

How the data were processed

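The 3 runs are 10x single-cell RNA libraries of sorted hippocampal cells. The authors deposited raw UMI counts per gene and barcode for each run. Cell Ranger, Seurat 4.0 and the mm10 genome are named in the submitters' processing notes, the step behind each is not given in the sources used here, and all values were counted from the deposited matrices. Cells were kept by the rule stated above, no doublet caller was run, and mt- genes were left out of sums, totals and tests. UMIs were summed per run and group (4599936 to 6398262 UMIs per sum) and tested with edgeR 4.0.16 (filterByExpr, TMM factors, quasi-likelihood test) in R 4.3.3, the run as a block, with Benjamini-Hochberg adjustment over all genes tested and a threshold of 0.05. Adjusted p-values and log2 changes with SE in the report come from these fits unless another tool is named.

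Each run is 1 library that holds both groups compared, which is the source of the pairing. Same-run sums deviated together, with correlations of 0.616, 0.751 and 0.610 over 10523 genes. On simulated counts for this comparison (10552 genes) 37.3% of 1.2-fold, 86.6% of 1.5-fold and 93.7% of 2-fold changes were recovered, and 5.96% of calls were false. The simulation changed 200 genes drawn at random and gave every gene the same dispersion (0.000522). It had no joint shift of ribosomal protein genes. These rates therefore hold for that setting and were not measured for the calls reported here. Named genes were up to 13 per direction with the largest change among called genes of the same sign in all 3 runs and at least 20 CPM in the higher group, without ribosomal protein genes, genes of the selection rule, sex-linked markers and unnamed gene models. From the 31 lists, up to 4 members of highest level and up to 3 called members of largest change (at least 5 CPM) could be named. Ndufs5, Ndufa11, Itgax, Axl and Eif2s2 fall outside the rule or were picked after their values were seen. Cells, lists and comparisons were chosen with earlier results of these data known. Gene spans came from GENCODE M21 (GRCm38), where 10521 of 10523 tested genes were found, and promoters from RefSeq (GRCm38.p6). Alternatives were no block, leaving out each run, DESeq2 1.42.0, other scalings and filters, thinning to 2000 UMIs and other cell selections.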

Additional observations from a re-analysis of the deposited data

Results flagged for a closer look

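The change from the low to the high group differed between marker-positive and marker-free microglia for 182 genes by the interaction test (edgeR's quasi-likelihood test with the run as a block). Among genes named in the report the differences, marker-positive minus marker-free on the log2 scale, were as follows. The chemokine genes Ccl4 and Cxcl16 differed by 2.42 and 0.72, and the interferon-induced gene Ifi27l2a by 1.29. Cd83 differed by 0.83, Lyz2 by 0.81 and Cd63 by 0.80. The ferritin genes Ftl1 and Fth1 differed by 0.70 and 0.59, and the lysosomal genes Ctsb, Npc2 and Ctsd by 0.58, 0.32 and 0.22. Cox8a of complex IV differed by 0.36, Myl6 by 0.34 and B2m by 0.31. For Rhob (-0.39) and Cst3 (-0.21) the difference was negative.

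The change also differed between cells with Y-linked UMIs only and cells with Xist only for 2 genes, both choroid plexus markers. The difference, Y-linked-only minus Xist-only, was -4.35 for Enpp2 and -4.32 for Ttr. Ttr UMIs were concentrated in few cells, with up to 1702 UMIs in 1 cell of run 1, and their part in this difference was not tested.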

How the results depend on the processing

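Without the run as a block no gene was called between the outer groups, the middle groups, in the interaction with marker status or in that with sex (0 in each), and 62 were called in marker-positive cells; 97 of 98 genes named in the text lost their call. With the run as a block and the numbers pairing both groups of a library, the counts were those of the report. Between the outer groups 312 genes were called by DESeq2 (which gave no adjusted p for 8364 of 10523), 1644 without TMM factors, 521 without cells with 2 or more UMIs of other brain cell markers, and 476 to 846 with 1 run left out. In marker-positive cells DESeq2 called 298 genes and cells thinned to 2000 UMIs gave 352. The interaction with marker status gave 57 genes after thinning and 47 to 148 with 1 run left out. The interaction with sex gave 0 by DESeq2 (54 at an unadjusted p under 0.05) and 1 to 2 with 1 run left out. The cause of these shifts was not tested.

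List medians near 0 changed sign under some settings. That of the mitochondrial ribosome, -0.011, was 0.012 to 0.024 with 1 run left out, 0.0089 with groups within depth bins, 0.023 for the outer 10% on each side, 0.0026 with a limit of 5% mt- UMIs, 0.034 with at least 4000 UMIs, 0.000674 without Fos or Egr1 cells, 0.0071 without cells of mixed sex markers, 0.000947 without other brain cell markers, 0.017 within sex classes and 0.00962 without cells with Itgax, Axl, Cst7, Cd74 or Ifi27l2a. Without TMM factors the medians were -0.022 for import, -0.035 for dynamics, -0.048 for the proteasome and -0.061 for homeostatic genes. With totals without ribosomal proteins those of the proteasome and homeostatic genes were -0.013 and -0.027. Dynamics stood at -0.0018 for the outer 10% on each side. After thinning, mitochondrial DNA expression was at 0.046, lineage factors at 0.0092 and p53 genes at 0.00914. Mitochondrial DNA expression was at 0.017 without other brain cell markers and p53 genes at 0.014 without Fos or Egr1 cells. With 1 run left out, medians were -0.080 to 0.0037 for mitochondrial DNA expression, -0.000233 to 0.044 for the proteasome, -0.048 to 0.045 for nuclear RNAs, -0.000224 to 0.030 for homeostatic genes, -0.145 to 0.0025 for immediate early genes and -0.013 to 0.0050 for p53 genes, and Egr1 stood at -0.30 to 0.0025. The cause was not tested. Of 98 genes named, 22 lost their call without run 1, 4 without run 2, 17 without run 3 and 18 after thinning. Besides those named in the report, Atp6v0e, Cst3 and Psmb4 lost it without run 1 and Tmsb4x without run 1 and without run 3.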
